A study of Mus musculus with 2 samples.

Results

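HLF (hepatic leukemia factor) peaks far from any gene end were examined in mouse blood progenitors. The part of the peak list described here is every peak whose centre lay over 100 kb from each end of every protein-coding gene in the RefSeq annotation of the mm10 (GRCm38) genome. It held 273 of the 3153 peaks. Of these, 114 lay inside a coding gene so long that its middle is over 100 kb from both of its ends, and 159 lay between coding genes, in what is here termed a gene desert. The 2 kinds are described apart. The cells were LSK cells, a gate of mouse marrow cells without lineage markers and with Sca-1 and c-Kit that holds stem cells and multipotent progenitors. In each arm 80000 wild-type LSK cells were infected on retronectin, with a pMX retrovirus for 3xFLAG-tagged Hlf and GFP or with a pMX-GFP control. Both arms were then kept for 5 days in OP9 medium with the cytokines IL-3, IL-7, SCF and Flt3L, and both were precipitated with an anti-FLAG antibody. There was 1 library per arm, and the data used here are the peaks listed for the FLAG-HLF arm. Tagged HLF came from a virus and not from the Hlf gene of the cells, and the list gives positions without read counts, heights or any cell marker. Depth is therefore unknown, no value has a replicate check, and tests run over peaks of 1 library, which are not replicates.

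HLF belongs to the PAR bZIP transcription factors, which bind as dimers to palindromic DNA sites that DBP, TEF and the repressor NFIL3 also recognise. In blood it marks stem cells and early progenitors and is switched off as cells mature. Transcription factors bind both promoters and enhancers, and an enhancer can act on a promoter across a long stretch of DNA, inside an intron of a long gene or in a desert between genes. Developmental regulators often stand beside such deserts. The peak list itself does not say which gene a distant peak acts on, so the genes named below state position only.

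DNA sequence was at hand for 4 of the 273 peaks, those that overlapped the promoter window of an annotated transcription start in the RefSeq table (GRCm38.p6). These peaks are far from the ends of coding genes but lie at or near a start inside a long coding gene or the start of a long noncoding RNA (lncRNA). The stretch shown for 3 of them is the part of the peak in the 250 bases before the start, on the strand of the gene, with the words found there in capitals. Mctp1, which encodes a membrane protein with C2 domains, held a peak (chromosome 13, 76579289 to 76579688) 197.1 kb from its 5′ end and 0.109 kb from another annotated start inside the gene. The stretch covers chr13:76579347-76579596 on the plus strand. Its capitals mark TTATGTAA, a PAR bZIP word, and TGAGTCA, the word of AP-1.

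Mctp1: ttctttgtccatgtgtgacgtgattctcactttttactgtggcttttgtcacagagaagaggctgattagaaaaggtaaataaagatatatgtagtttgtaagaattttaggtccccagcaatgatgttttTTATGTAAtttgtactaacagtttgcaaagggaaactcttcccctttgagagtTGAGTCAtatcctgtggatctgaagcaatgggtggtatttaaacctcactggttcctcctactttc

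The centre of TTATGTAA was 6 bases from the centre of the Mctp1 peak, and TGAGTCA was 46 bases away. Over all 32851 promoter windows of the table, 0.938% held TTATGTAA or its reverse complement TTACATAA, and 5.2% held the AP-1 word on either strand. The looser PAR bZIP word TTANNTAA, which was also searched and which this match meets, was in 6% of windows. The full palindrome TTACGTAA, held by 0.119% of windows, was in none of the 4 stretches. A match shows only that the letters are there.

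A130077B15Rik, an lncRNA gene in the desert between Avpr1a and Ppm1h, had a peak (chromosome 10, 122569747 to 122570146) centred 0.055 kb from its start. Its stretch is chr10:122569892-122570141 on the minus strand, and its capitals mark TGACAG and its reverse complement, a HOX and MEIS word that 19.2% of windows held. Gm41331, an lncRNA gene in the desert beyond 4933412E24Rik, had a peak (chromosome 15, 60141759 to 60142158) centred 0.047 kb from a start. Its stretch is chr15:60141759-60141910 on the plus strand and reaches over an earlier start of the same lncRNA. There the capitals mark 2 adjoining copies of AACCACA, the RUNX word on the reverse strand (5.27% of windows), and TATAAA (13.6%).

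A130077B15Rik: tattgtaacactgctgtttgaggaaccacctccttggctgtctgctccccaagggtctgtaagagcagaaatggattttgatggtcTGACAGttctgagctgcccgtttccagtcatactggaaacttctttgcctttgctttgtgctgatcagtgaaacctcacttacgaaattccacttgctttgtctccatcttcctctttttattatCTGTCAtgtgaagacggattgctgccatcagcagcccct
Gm41331: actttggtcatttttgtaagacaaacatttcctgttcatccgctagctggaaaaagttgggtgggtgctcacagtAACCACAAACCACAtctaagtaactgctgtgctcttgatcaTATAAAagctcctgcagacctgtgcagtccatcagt

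The fourth stretch held none of the 19 words searched. It is the outer 30 bases (chr10:125745040-125745069) of the window before the start of the lncRNA Gm36884, beside Lrig3. That start is at 125744819, 0.42 kb from the peak centre. No PAR bZIP word was found in the A130077B15Rik, Gm41331 and Gm36884 stretches, which are parts of peaks, so a word elsewhere in those peaks would not be seen.

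Density fell with distance, and long genes held more peaks than deserts per base. The distance of the 273 centres from the nearest coding gene end ran from 100.1 to 1254 kb, with a median of 160.0 kb (quartiles 123.4 and 239.0 kb). There were 148 beyond 150 kb, 90 beyond 200 kb and 18 beyond 500 kb. The limit of 100 kb cut through a continuous range. The closest peaks short of it lay at 99.11 kb (in Epb41l4a), 99.40 kb (in Clvs1) and 99.70 kb (beside Tcl1). The closest past it lay at 100.06 kb (in Ldlrad4), 100.28 kb (beside 3110040M04Rik) and 100.61 kb (beside Bank1). Long-gene interiors beyond 100 kb made up 211.6 Mb and held 53.9 peaks per 100 Mb (95% exact Poisson interval 44.4 to 64.7). Deserts made up 737.8 Mb and held 21.5 per 100 Mb (18.3 to 25.2). The ratio of the densities was 2.5 (1.95 to 3.2, two-sided exact binomial p = 6.42e-13). Deserts reach farther from genes, and with both kinds matched on distance in 5 bands the ratio was 1.74. With the ends of all annotated genes counted, 57 peaks were left and the ratio was 4.5 (exact binomial p = 4.70e-08). The inside group then took in peaks in any annotated gene, noncoding ones included, so this is a different comparison.

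By band, the inside density exceeded the outside density from 100 to 150 kb, at 88.8 against 47.8 peaks per 100 Mb (ratio 1.86, exact binomial adjusted p = 0.00194 over 8 bands). From 150 to 200 kb it was 62.8 against 33.1 (ratio 1.9, exact binomial adjusted p = 0.0257). Beyond 200 kb the counts were small and the difference did not pass the test in any of the 3 bands. From 200 to 300 kb the densities were 36 and 23.4 (ratio 1.53, interval 0.784 to 2.89). From 300 to 500 kb, 4 inside peaks gave 11.2 against 13.6 outside. Beyond 500 kb, 3 inside peaks gave 18.3 against 6.52. The lead of gene interiors was already present nearer to gene ends, with a ratio of 1.94 at 50 to 100 kb (exact binomial adjusted p = 8.67e-10). Within each kind the decline continued past the limit. In long genes the density was 79.1 per 100 Mb at 100 to 200 kb and 23.8 beyond (ratio 3.32, interval 2.08 to 5.5). In deserts it was 41.6 and 13 (ratio 3.2, interval 2.31 to 4.46). Unsequenced gaps, mappability and open chromatin were not taken into account, and their part in these densities was not tested.

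**Figure D1:**
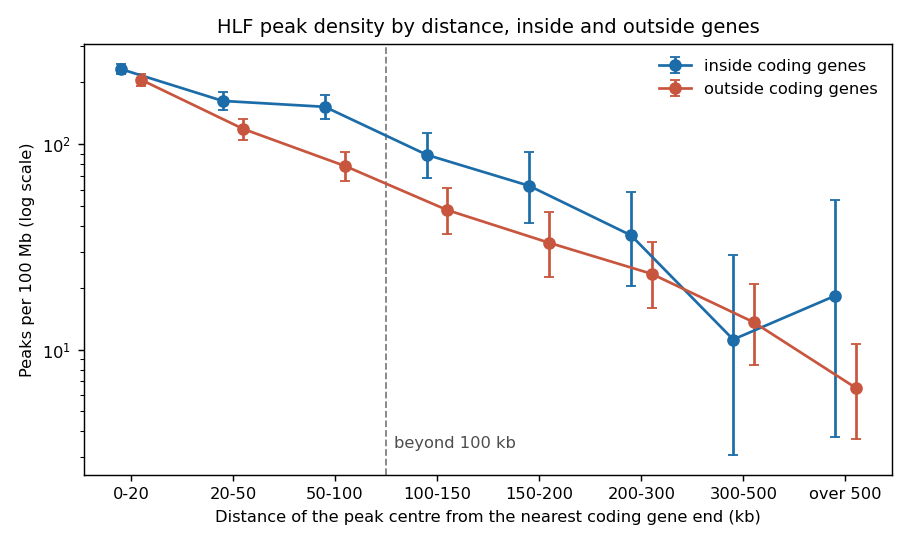
Peaks per 100 Mb of sequence (log axis) by distance of the peak centre from the nearest coding gene end in kb, inside coding genes (blue) and outside (red), with 95% exact Poisson intervals from 1 library. Both fall from 232.6 and 206.2 within 20 kb to 11.2 and 13.6 at 300 to 500 kb; beyond 500 kb the values are 18.3, from 3 peaks, and 6.52, and the blue points lie above the red in every band except 300 to 500 kb.

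The 114 long-gene peaks lay in 97 coding genes, 1 of them in the overlap of Schip1 and Iqschfp. In all, 950 coding genes have any sequence beyond 100 kb of every gene end, and 10.2% of them held such a peak (95% exact Clopper-Pearson interval 8.36 to 12.3%). A single peak was found in 82 genes, 2 in 13, 3 in 1 and 4 in 1. The host genes had a median length of 411.7 kb over the peaks. Of the peaks, 93 lay in genes whose strand the start table gives. In these, 49 were nearer to the 5′ end of the host gene and 44 nearer to the 3′ end, or 52.7% (42.1 to 63.1%, exact binomial adjusted p = 0.679 over 5 sets of peaks). With the limit at 50 kb the ratio of 5′ to 3′ was 1.36 and passed (exact binomial p = 0.0162). Inside genes at 20 to 100 kb from an end, 58% of 455 peaks were nearer to the 5′ end (53.3 to 62.6%, exact binomial adjusted p = 0.0018). Whether the 2 shares differ was not tested.

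Cacnb2 held the most peaks of the 950 genes. It encodes a beta subunit of voltage-gated calcium channels and spans 385.0 kb (chromosome 2, 14603861 to 14988811). Its 4 peaks were centred 115.7, 169.8, 205.0 and 219.6 kb from the 5′ end. The last (14823296 to 14823695) was 0.597 kb from another annotated Cacnb2 start, and the one at 169.8 kb was 6.65 kb from the start of the lncRNA Gm13269. Cacna1a, a pore-forming calcium channel subunit, held 2 peaks, 116.1 and 132.8 kb from the nearest end and 16.7 kb apart.

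Chromatin regulators were among the hosts with several peaks. Arid1b, a subunit of the BAF chromatin remodelling complex (chromosome 17, 4994297 to 5347656), held 3 peaks at 193.4, 212.6 and 244.8 kb from its 5′ end. A further 2 peaks lay in the desert before that end, 367.9 and 717.5 kb from it, the farther of them nearer to Nox3 (580.5 kb). Hdac9, a histone deacetylase gene of 869.5 kb, held 2 peaks at 106.7 and 192.7 kb from its 5′ end.

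Runx genes held 3 peaks. Runx1, a transcription factor needed to form blood stem cells, is 224.6 kb long (chromosome 16, 92601466 to 92826074, minus strand), and 24.6 kb of it lay beyond the limit. Its peak (92715432 to 92715831) was 110.4 kb from the 5′ end, 114.2 kb from the 3′ end and 18.3 kb from the closest annotated Runx1 start. Another peak lay in the desert upstream of Runx1, between it and Setd4, 381.5 kb from Runx1 and 375.9 kb from Setd4. Runx2, best known for bone and also a factor of lymphoid cells, held 2 peaks at 161.5 and 200.6 kb from its 5′ end. Foxp1, a forkhead factor of B cell development, held 1 peak (chromosome 6, 99028839 to 99029238) that was 493.7 kb from its 5′ end and 103.7 kb from its 3′ end but 0.74 kb from another annotated Foxp1 start. Rora, a nuclear receptor of the clock and of innate lymphoid cells, held 1 near its middle, 381.1 kb from the 5′ end.

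Distances in the next sentences are from the 5′ end of the host. Signalling genes of blood cells with a peak were Vav3, a guanine nucleotide exchange factor (111.2 kb), Prkca, a protein kinase C (110.6 kb), and Elmo1, a partner of DOCK proteins (215.9 kb). Dock4, an exchange factor for Rac, held 2 peaks at 113.3 and 180.6 kb. Inpp4b, a phosphoinositide phosphatase gene, held 2 at 290.9 and 432.5 kb. Maml2, a coactivator of Notch, held 2 at 147.1 and 244.5 kb, and its relative Maml3 held 1 at 314.9 kb. Sgms1, a sphingomyelin synthase gene, held 2 at 135.0 and 165.8 kb. The other genes with 2 peaks were Asap1, Camta1, Enox1, Mast4, Oxr1 and Tbc1d22a. The pair in Tbc1d22a was the closest inside a gene, with centres 8.05 kb apart.

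**Figure D2:**
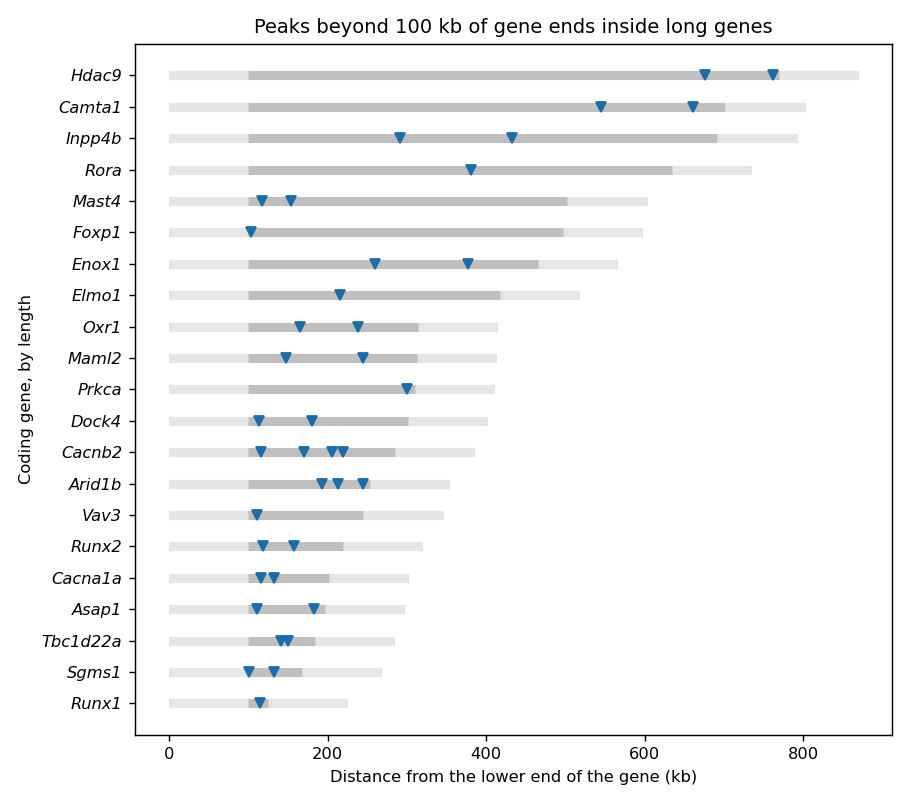
Position of the peaks (triangles) in long coding genes, in kb from the lower end of each gene; bars are gene lengths, with the outer 100 kb at each end in pale grey. Shown are the 15 genes with 2 or more peaks and 6 genes with 1 from the lists other than the neuronal one. The 5 neuronal list genes with a peak are not drawn. Cacnb2 holds 4 peaks and Arid1b 3.

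The genes with the longest interiors held few peaks per base. Of the 10 genes with the most sequence beyond 100 kb, 3 held a peak (Cntnap2, Dlg2 and Macrod2, 1 each), beside 10.2% of all 950 long genes, and Ptprd, Lrp1b, Lsamp, Dmd, Nrxn3, Fhit and Robo2 held 0. The deepest peak inside a gene was in Dlg2, a synaptic scaffold gene, 750.4 kb from its 5′ end. Magi2, another scaffold gene, followed with 623.0 kb to the nearest end, then Pde4d, a cAMP phosphodiesterase gene (504.7 kb), Sox5 (441.5 kb) and Ctnnd2 (421.1 kb). The 30 genes with over 1000 kb of such sequence held 15.1 peaks per 100 Mb of it, against 142.2 in the 416 genes with at most 100 kb. Counted by gene the order was the other way, with a peak in 6 of the 30 (20%, 7.71 to 38.6%) and in 21 of the 416 (5.05%, 3.15 to 7.61%). Distance from the ends grows with length, and these classes were not matched on it.

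The 7 gene lists were set beside the positions, as counts without a test. They were drawn up with earlier results of these data known, and beside them stand the 10.2% of all 950 long genes. Of the list genes long enough to hold a peak, 3 of 9 lymphoid factors and receptors did (Foxp1, Rora, Runx2), 3 of 9 blood signalling genes (Elmo1, Prkca, Vav3), 2 of 7 chromatin regulators (Arid1b, Hdac9) and 1 of 7 stem and progenitor factors (Runx1). The myeloid list had 0 of 1. The clock and PAR bZIP list had 1 of 1, Rora, which is also in the lymphoid list. Of the neuronal adhesion and synapse genes, 5 of 67 held a peak (7.46%), namely Cntnap2, Dlg2, Macrod2, Magi2 and Tenm4. Per length, the lymphoid list had 220.5 peaks per 100 Mb of its interior, from 4 peaks in 1.81 Mb. The chromatin list had 247.8, from 5 peaks in 2.02 Mb, 3 of them in Arid1b. The neuronal list had 8.91, from 5 peaks in 56.1 Mb, against 54.3 over all long genes. The lists were not matched on gene length or on distance from gene ends, and every gene of the neuronal list was long enough to hold a peak.

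Deserts were rarely occupied, and some next to regulators of blood cells held several peaks. There were 1537 deserts with sequence beyond 100 kb, and 122 of them, or 7.94% (6.63 to 9.4%), held the 159 peaks. A single peak was found in 99 deserts. The median desert with a peak was 691.0 kb wide, counted over peaks. Deserts with over 1000 kb of sequence beyond the limit held 10.8 peaks per 100 Mb of it, against 86.3 in those with at most 100 kb. Counted by desert the order was the other way. A peak was in 29 of 217 (13.4%, 9.14 to 18.6%) and in 18 of 480 (3.75%, 2.24 to 5.86%). These classes were not matched on distance. Of the 10 widest deserts, 9 held 0 peaks, among them that of 4542 kb between Pcdh20 and Pcdh9, beside the 7.94% of all deserts that held any.

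The exception, between Zeb2 and Acvr2a on chromosome 2, was 3697 kb wide and held 5 peaks, the most of all. Zeb2 encodes a repressor of the zinc finger and homeodomain type that acts in blood stem cells, myeloid cells and lymphocytes, and distant upstream enhancers of it are known. Acvr2a encodes an activin receptor. A pair of peaks (45261804 to 45262203 and 45279408 to 45279807) lay 144.6 and 162.2 kb upstream of Zeb2, inside the noncoding transcript Vis1. A single peak lay 1254 kb from Zeb2 and was the farthest from a coding gene end of all 273. Another pair, 1.44 kb apart and inside the lncRNA Gm13481, lay 498.7 and 500.1 kb from Acvr2a.

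Other deserts with 4 peaks bordered Hlx, Cited2 and St3gal1. Hlx is a homeobox gene active in blood progenitors. Its 4 peaks lay past its 3′ end, at 190.6, 191.4, 235.7 and 249.0 kb, so as 2 pairs with centres 0.808 and 13.3 kb apart. Cited2 encodes a transcriptional coregulator that blood stem cells require. All 4 peaks of its desert lay on its own 5′ side, at 109.7, 160.0, 237.6 and 315.2 kb,. Of these, 2 were inside the lncRNA Gm32543. St3gal1, a sialyltransferase gene, had peaks at 243.6, 286.1 and 305.0 kb from it, and a further peak at 556.4 kb that was nearer to Zfat (350.4 kb).

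There were 5 deserts with 3 peaks. Next to Hs6st1, a heparan sulfate sulfotransferase gene, peaks lay 207.4, 254.6 and 302.6 kb from the 5′ end. Inhba, which encodes an activin subunit, had 3 at 211.6, 229.8 and 317.9 kb past its 3′ end. Between Bcl2l11, which encodes the pro-apoptotic protein BIM, and Spdye4c, peaks lay 171.7, 252.3 and 305.2 kb from Bcl2l11, the last 2 nearer to Spdye4c. The first and second of them were inside Morrbid, an lncRNA known to restrain Bcl2l11 in short-lived myeloid cells. Foxo1, a factor of early B cells, bordered a desert with 1 peak at 217.8 kb from it and a pair at 100.8 and 109.6 kb from Cog6. Tbl1xr1, a subunit of the NCoR and SMRT corepressor complexes, had peaks of its desert at 140.6 and 441.3 kb on its 5′ side, and the third peak lay 458.6 kb from Agtr1b at the other border.

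**Figure D3:**
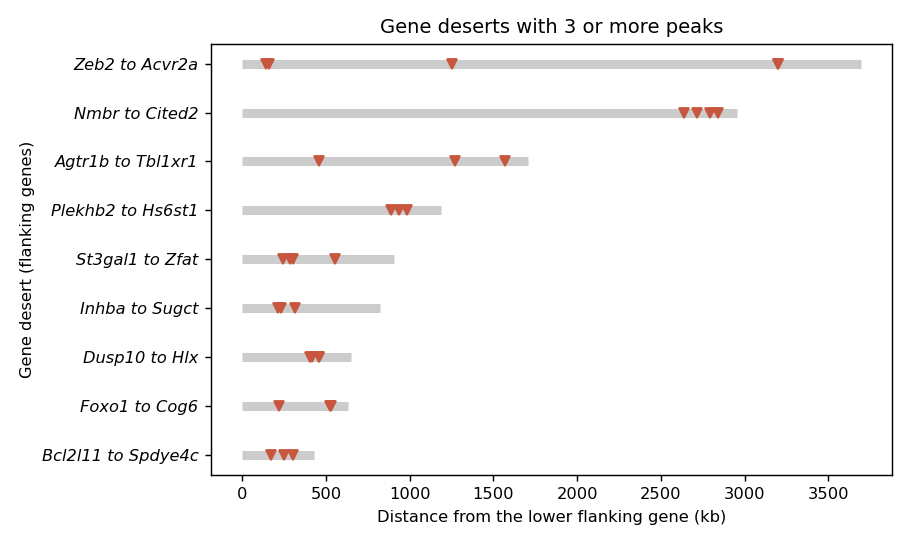
Position of the peaks (triangles) in the 9 gene deserts that held 3 or more, in kb from the lower flanking gene; bars span the desert between the flanking coding genes. The 4 peaks between Nmbr and Cited2 all lie at the Cited2 end, and the 5 between Zeb2 and Acvr2a lie in 3 places.

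Among single genes of the lists that border a desert, peaks lay 106.6 kb from Gata3, a T and innate lymphoid factor, 123.1 kb from Klf4, 147.3 kb from Maf and 157.4 kb from Jun. Bcl11a, a repressor of lymphoid and erythroid cells, had 2 at 196.9 and 926.6 kb. Cxcr4, the chemokine receptor that keeps stem cells in the marrow, had 2 beyond the limit, at 194.7 and 240.4 kb. Mef2c had 1 at 429.6 kb and Tox 1 at 927.6 kb, nearer to Car8. Trib1, which encodes a pseudokinase, had 2 at 174.1 and 207.9 kb, the second nearer to 4933412E24Rik. Kit, the SCF receptor gene, had 1 at 169.7 kb that was nearer to Kdr (106.4 kb). Rasgrp1, which encodes an activator of Ras, had 2 at 626.0 and 654.1 kb that were nearer to Thbs1. Tet2, which oxidises methylated cytosine, had 1 at 115.0 kb, Zmiz1 1 at 144.6 kb, Setbp1 1 at 217.3 kb and Jarid2, a partner of the Polycomb complex, 1 at 338.2 kb. Myc had 1 peak 1658 kb past its 3′ end, nearer to Gsdmc (127.6 kb). Blood cell enhancers of Myc are known far beyond that end.

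Counted as genes, 2597 coding genes border a desert with sequence beyond 100 kb, and 9.24% of them flanked a peak of this set. The same share was 6 of 10 for the chromatin regulators, 4 of 9 for the myeloid list, 6 of 18 for the lymphoid list, 4 of 13 for blood signalling and 2 of 9 for stem and progenitor factors. It was 0 of 3 for the clock and PAR bZIP list and 5 of 59 (8.47%) for the neuronal list. These counts had no test, and the same knowledge of earlier results stands behind the lists.

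**Figure D4:**
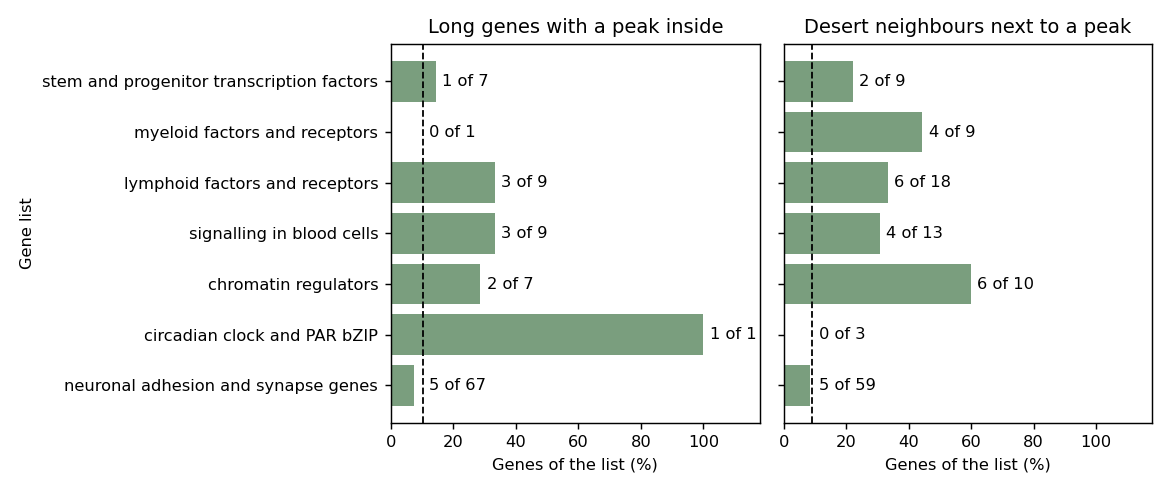
Share of each gene list (bars, %) that holds a peak beyond 100 kb of gene ends, among genes long enough (left), and that flanks such a peak, among genes bordering a desert (right), with counts beside the bars. Dashed lines mark all such genes, 10.2% and 9.24%; the neuronal list lies below both lines, and a bar over 1 or 3 genes rests on few genes.

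For the 128 desert peaks whose nearest gene has a known strand, 74 were nearest to a 5′ end and 54 to a 3′ end, or 57.8% (48.8 to 66.5%). This did not pass the test (exact binomial adjusted p = 0.116). Outside genes at 20 to 100 kb the share was 59.1% of 325 (53.5 to 64.5%, exact binomial adjusted p = 0.0021). The 2 shares were not tested against each other.

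Desert peaks lay inside lncRNA genes more often than the cover of such genes would give. Of the 159 peaks, 44 (27.7%, Clopper-Pearson interval 20.9 to 35.3%) were centred in an annotated lncRNA gene, which cover 9.84% of the desert sequence. The density was 60.6 peaks per 100 Mb in lncRNA genes and 17.3 elsewhere in deserts (ratio 3.51, interval 2.42 to 5, two-sided exact binomial p = 1.72e-10). Matched on distance in 5 bands the ratio was 2.94. Inside long coding genes, 6 of 114 peaks (5.26%) were in an lncRNA gene, against 4.06% of that sequence (ratio 1.31, interval 0.471 to 2.95, exact binomial p = 0.472). The share in lncRNA genes was lower in long genes than in deserts (Fisher's exact two-sided adjusted p = 8.12e-06 over 16 comparisons). That test does not allow for the unlike cover of lncRNA genes, 4.06% against 9.84%. Over both kinds the share of peaks in lncRNA genes was 18.3%, against 10.8% of the 2880 other peaks (Fisher's exact adjusted p = 0.00103). The cover of lncRNA genes nearer to coding gene ends was not measured, so this comparison does not allow for it. Only the nearest start of any gene was looked at here, so an lncRNA start with a coding start nearer was not counted. Of the desert peaks with starts in the table, 15 of 156 had an lncRNA start nearest and within 5 kb, and of the long-gene peaks 1 of 113 (Fisher's exact adjusted p = 0.00562). With the limit at 150 kb this last difference did not pass (odds ratio 0, Fisher's exact adjusted p = 0.221).

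The 44 peaks lay in 41 lncRNA genes, some of which overlap each other, and 5 of these held 2 peaks each. They were Morrbid, Gm32543, Gm13481, 1700112H15Rik beside Hlx and Gm13986 between Rasgrp1 and Thbs1. The start table holds 9520 of the 12697 lncRNA genes (75%), so distances to an lncRNA start, and the counts within 5 kb, cover those genes only. Apart from the 4 at promoter windows above, the peaks closest to a start in that table were at Gm51682 upstream of Tle3, a Groucho corepressor gene (0.254 kb), and at Gm35035 beside Dusp6, a MAP kinase phosphatase gene (0.569 kb). A peak in the desert beside Tet2 lay 3.29 kb from the start of Gm40153, inside that gene. A peak 144.6 kb from Zmiz1 lay inside its opposite-strand transcript Zmiz1os1. No strand is known for the binding, so a peak cannot be given to either transcript.

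A few desert peaks were in antigen receptor loci, whose segments the annotation does not list as protein-coding. The Igh locus (chromosome 12, 113258768 to 116009954) held 1 peak, 0.082 kb from the variable segment Ighv8-4 and overlapping it (115023745 to 115024144). The Igk locus, of 3171 kb, held 1 peak 7.36 kb from a variable pseudogene segment. The Tcrb locus held 2 peaks, 1 of them beyond 100 kb of a coding gene end and 0.185 kb from the segment Trbv17. The Igk and Igh peaks were among the farthest from a coding gene end, at 1249 and 1024 kb. The other 2 of the 5 farthest desert peaks, after the one beyond Zeb2, lay 1017 kb from Immp2l and 936.8 kb from Nxph1. Segments of these loci do not count as coding genes in the annotation. The Tcra locus held 0 peaks. No microRNA gene was closer than 11.3 kb to a peak of this set.

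Far peaks stood alone more often than other peaks. Of the 273, 10.3% had another peak within 20 kb (6.92 to 14.5%), against 18.8% of the 2880 other peaks (17.4 to 20.3%, Fisher's exact adjusted p = 0.000727). Within 5 kb the shares were 2.2% and 7.95% (Fisher's exact adjusted p = 0.000483), and within 100 kb 35.5% and 50.2% (Fisher's exact adjusted p = 1.82e-05). Density falls with distance in the whole list, so the rule that picked the far peaks bears on their spacing. The spacing was not matched on distance, and these shares are a description. With the limit at 150 kb the 5 kb comparison did not pass (odds ratio 0.512, Fisher's exact adjusted p = 0.212). Each peak of a close pair is the neighbour of the other, and both were counted. Fisher's test takes them as independent, so the p-values of spacing do not allow for this. Within 5 kb, 6 desert peaks and 0 long-gene peaks had a neighbour, a difference that did not pass the test (Fisher's exact adjusted p = 0.0754). The 6 were 3 pairs, by Hlx, by Acvr2a and beside Klf6, a zinc finger factor gene, where 2 peaks 0.561 kb apart lay 349.4 and 350.0 kb away. In all there were 12 pairs of far peaks within 20 kb of each other, 4 of them in the long genes Arid1b, Cacna1a, Cacnb2 and Tbc1d22a.

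Far peaks were spread over all chromosomes but were sparse on X. X held 2 of the 273, or 2.95 per 100 Mb of sequence beyond 100 kb (exact Poisson interval 0.357 to 10.7), against 30.7 on the autosomes (27.2 to 34.6). Chromosomes 13 and 15 had the highest densities, 57 (36.5 to 84.9) and 54.6 (34.6 to 82). Among the autosomes the lowest was chromosome 18, with 4 peaks and 11.7 (3.19 to 30). Chromosome 10 held 16 peaks, and all 16 were in deserts. The copy number of X in these cells is not known, and its part in the low value was not tested.

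**Figure D5:**
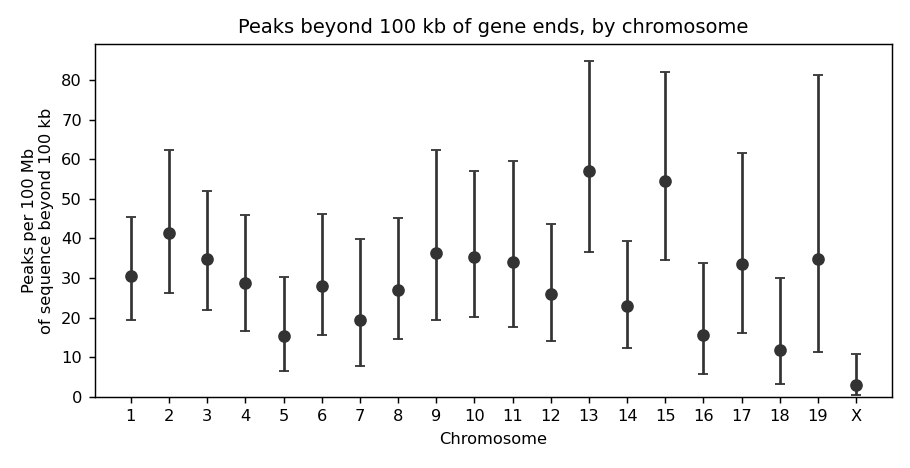
Peaks beyond 100 kb of coding gene ends per 100 Mb of sequence beyond that limit, by chromosome, with 95% exact Poisson intervals from 1 library. Chromosome X, with 2 peaks, is lowest at 2.95, and its interval lies below those of most autosomes.

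The file does not explain its line order, and no difference in place passed the test at the limit of 100 kb. Of the 273, 35.5% were in the first 1000 lines (29.9 to 41.5%), against 31.4% of the other peaks (29.7 to 33.1%, Fisher's exact adjusted p = 0.277). Long-gene and desert peaks had 36% and 35.2% in the first 1000 lines (Fisher's exact adjusted p = 0.899). With the limit at 150 kb the odds ratio against the other peaks was 1.73 for the first 1000 lines (Fisher's exact adjusted p = 0.00544).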

How the data were processed

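The file deposited for the FLAG-HLF arm lists chromosome, start and end of 3153 peaks of 400 bases, with no score or other value. Per the submitters' processing notes the tools were MACS2, Bowtie2 and bedtools and the genome was mm10 (GRCm38). Which tool did what, at which version and threshold, and with what use of the control arm, was not given in the sources used here. A list of the GFP arm was not analysed here.

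A peak was placed by its centre, 200 bases past its start, among the 21631 coding genes of 19 autosomes and X in RefSeq GRCm38.p6. Strands and starts came from RefSeq promoter windows, which cover the chromosomes of 3070 peaks. Positions count from 1. Sequence before the outermost coding genes of a chromosome was left out of densities. Tests were two-sided: exact binomial for densities, Fisher's exact with Benjamini-Hochberg adjustment for shares (threshold 0.05). Intervals (95%, exact Poisson or Clopper-Pearson) cover counting error only. The density functions were tested on simulated data.

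Words were searched on both strands in the overlapped promoter windows only, since no genome sequence was used. For PAR bZIP they were TTACGTAA, TTATGTAA and TTANNTAA (which includes both). C/EBP had TTGCGCAA and TTGCNNAA (which includes it), the CRE TGACGTCA, the AP-1 site TGAGTCA, the ETS family GGAAGTG, the factor PU.1 GAGGAAGT (which can overlap it), the zinc finger GATA factors AGATAAG, the RUNX proteins TGTGGTT, the first E-box form CAGCTG, the other E-box form CACGTG, the insulator factor CTCF CCAGGGGG or CCACTAGG, the repressor REST TTCAGCACC or GCTGTCCAT, the HOX and MEIS proteins TGACAG, and the control word was TATAAA.

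The members and gene lists were chosen with earlier results of these data known. The 5′ and 3′ ends, lncRNA densities and starts, receptor loci and matching on distance were added after the file was read. Named genes are those holding 2 or more peaks, list genes that hold or flank one, the farthest peaks of each kind, peaks within 20 kb of each other and those beside the limit. The rest were named after their values were seen. Of the list genes that flank a peak, 1 is counted but not reported here by name. Software was matplotlib 3.10.9, scipy 1.17.1, pandas 2.3.3 and numpy 2.4.6 under Python 3.11.15.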

Additional observations from a re-analysis of the deposited data

How the results depend on the processing

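Of 100 alternatives over 23 results, 59 with a test kept direction and side of the threshold, 9 numbers of peaks stayed within 1.5 times, and 2 ratios matched on distance (1.74 and 2.94), which have no p, stayed within 1.5 times. The number of far peaks follows the definition: limits of 50, 150 and 200 kb gave 659, 148 and 90 (340, 50 and 23 in long genes, 319, 98 and 67 in deserts). Counting lncRNA gene ends as well left 101, with 59 inside and 42 outside any coding or lncRNA gene. Counting all gene ends left 57, with 38 inside and 19 outside any annotated gene. Lines before the midpoint of the file held 145 (59 and 86) and lines after it 128 (55 and 73). The density ratio of the inside to the outside of genes stayed above 1 in all 12 alternatives, from 1.74 to 4.5. With lncRNA genes added (4.16) or all genes counted (4.5), it did not compare long coding genes with deserts. Noncoding genes then counted as inside. The highest ratio among the rest was 2.79, at a limit of 50 kb. With the limit at 150 kb, 2 differences no longer passed, namely neighbours within 5 kb against other peaks (odds ratio 0.512) and lncRNA starts in long genes against deserts (0). Odds ratios that changed side of 1 had not passed in either setting: the first 1000 lines, long genes against deserts (0.837 at 50 kb, 0.785 at 150 kb) and far against other peaks (0.906 at 50 kb), lines before the midpoint (0.945 at 50 kb) and lncRNA starts against other peaks (1.08 at 50 kb). Passing only elsewhere were the first 1000 lines at 150 kb (1.73) and the nearer end in long genes at 50 kb (1.36). The cause was not tested. The planned searches of words, base composition and repeats over whole peaks were not run, as no genome sequence was used here. No library could be left out, with 1 per arm. No paired analysis was possible because 1 peak list was analysed.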
